A study of Mus musculus with 18 samples.

Results

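The genes described here are 9 enzymes of branched-chain amino acid and ketone body breakdown: Bcat1, Bcat2, Bckdha, Bckdhb, Dbt, Ppm1k, Bdh1, Oxct1 and Acat1. They were taken by name from a count table of 30583 genes. All 9 were in the table and passed the filter on low counts, which kept 16311 genes. The samples were left ventricular muscle, infarcted in all but the sham group, from 18 male C57BL/6JR mice aged 12 weeks, 3 mice in each of 6 groups, and their RNA was sequenced. In 5 groups a ligature closed the left anterior descending coronary artery, causing a myocardial infarction, and tissue was taken 10 min or 1, 6, 24 or 72 h later. The sham mice had the suture passed around the artery without a knot. A single sham group served all 5 times, so time since the operation cannot be told apart from ligation. All were operated on under pentobarbital and killed under isoflurane, and the labels name no genetic change in any group. The labels give myocardial tissue as the source and also cardiomyocytes as the cell type, without describing a step that separates cells.

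Leucine, isoleucine and valine are the branched-chain amino acids. A branched-chain aminotransferase first removes their amino group, in the cytosol by Bcat1 and in mitochondria by Bcat2. The resulting ketoacids are then committed to oxidation by the branched-chain ketoacid dehydrogenase of the mitochondrial matrix. This complex is built from the E1 subunits Bckdha and Bckdhb, the E2 core Dbt and the E3 subunit Dld, which it shares with other dehydrogenases. The kinase Bckdk phosphorylates Bckdha and so inhibits the complex, and the phosphatase Ppm1k reverses this. Ketone bodies made by the liver are burnt in heart mitochondria by Bdh1, which turns hydroxybutyrate into acetoacetate, by Oxct1, which attaches coenzyme A, and by Acat1, which splits the product into acetyl-CoA. Acat1 also acts at the end of isoleucine breakdown, so it belongs to both routes.

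The promoters of the aminotransferase that rose and of 2 of the genes that fell are shown because, of the windows searched, these held motif matches upstream of the start. The windows came from RefSeq (GRCm38.p6), which matched 7 of the 9 genes with 11 windows of 300 bases, 250 before and 50 after the start. Each line gives the 250 bases before the start, 5′ to 3′ on the gene's strand, with motif matches in capitals.
Bcat1 promoter, chr6:145076158-145076407, minus strand: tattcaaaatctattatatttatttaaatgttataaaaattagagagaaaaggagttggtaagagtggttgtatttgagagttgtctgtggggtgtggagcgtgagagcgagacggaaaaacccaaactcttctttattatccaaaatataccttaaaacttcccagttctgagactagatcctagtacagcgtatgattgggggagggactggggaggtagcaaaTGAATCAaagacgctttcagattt
Bckdhb promoter, chr9:83924887-83925136, plus strand: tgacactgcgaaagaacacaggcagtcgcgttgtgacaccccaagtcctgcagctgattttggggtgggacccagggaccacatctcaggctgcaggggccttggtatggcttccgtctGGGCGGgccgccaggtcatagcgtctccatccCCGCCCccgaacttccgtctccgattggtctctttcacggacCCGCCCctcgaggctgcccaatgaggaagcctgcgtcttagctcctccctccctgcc
Ppm1k promoter, chr6:57535488-57535737, minus strand: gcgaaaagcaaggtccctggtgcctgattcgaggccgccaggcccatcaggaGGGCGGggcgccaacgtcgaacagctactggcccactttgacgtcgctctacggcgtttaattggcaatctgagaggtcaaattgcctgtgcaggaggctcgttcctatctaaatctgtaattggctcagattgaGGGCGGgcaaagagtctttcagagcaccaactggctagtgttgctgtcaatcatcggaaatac
The Bcat1 window held an AP-1 site (TGANTCA) that began at -24 from the start. This motif was in 7.8% of the 32851 RefSeq promoters. The Bckdhb window held 3 GC boxes (GGGCGG), beginning at -131, -99 and -57, and the Ppm1k window held 2, at -198 and -63. The GC box was in 35.7% of all promoters, and the only other match was a GC box at 16 bases after the start in a second Bdh1 window. The last bases of the Bcat1 window, with the AP-1 match among them, lie inside the first exon of the longer GENCODE model. Both strands were searched, so a match may read as its reverse complement. The ERR response element (TNAAGGTCA, in 1.3% of promoters), the NRF1 site (4.6%) and the E-box (CACGTG, 7.2%) had no match in any of the 11 windows. A match describes the letters of the window and says nothing of binding.

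Libraries held 18.2 to 25.1 M (mega) counts. Transcripts of the mitochondrial genome took 23.8% to 26.1% of counts in sham and 8.41% to 10.5% at 72 h. Levels are given as CPM, counts per M counts after scaling of libraries by TMM (trimmed mean of M values). With library totals the typical gene would stand 0.61 above sham on the log2 scale at 72 h, and with TMM 0.03. Of the genes called at 72 h, 51.4% were higher with TMM and 79.9% with library totals. A pair of libraries stood apart. Replicate 1 at 6 h held 151 CPM of 3 atrial muscle genes (Myl7, Sln and Myl4), against 1.47 to 3.41 CPM in every other library. Replicate 3 at 24 h had a mean log2 CPM of 10 cardiomyocyte markers of 10.84, below the 11.46 and 11.40 of its group. In bulk tissue, fewer cells of a type and less RNA per cell cannot be told apart.

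In sham hearts Oxct1 and Acat1 had the highest levels of the 9 genes per length. Oxct1 stood at 298 ± 3.01 CPM per kb of exon (SD, n = 3) and Acat1 at 177 ± 12. Bckdha at 49.0 ± 2.98 and Bckdhb at 44.9 ± 2.43 CPM per kb came next, and their spreads touched. Bcat2 stood at 34.3 ± 2.16, Dbt at 24.0 ± 1.59, Bdh1 at 16.4 ± 1.75 and Ppm1k at 13.2 ± 0.916 CPM per kb. Bcat1 was the lowest at 0.144 ± 0.0296 CPM per kb, with 24 to 32 counts in each sham library. The E3 subunit Dld stood at 133 ± 9.17 CPM per kb. At 72 h Oxct1 and Acat1 were still the highest, at 110 ± 9.75 and 53.2 ± 7.42 CPM per kb. Bcat2 was then the third by its mean, at 17.1 ± 2.64. Bckdha and Bckdhb stood at 11.9 ± 2.66 and 11.9 ± 2.76, and their spreads overlapped that of Bcat2. Bcat1 was still the lowest, at 2.03 ± 0.164 CPM per kb.

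By 72 h after ligation Bcat1 had risen and the other 8 genes had fallen. The changes came late: none of the 9 genes was called against sham at 10 min or 1 h, 2 at 6 h, 7 at 24 h and 9 at 72 h, with called meaning an edgeR adjusted p under 0.05 over all genes tested. At 6 h Bcat1 was higher and Ppm1k lower, where 16.3% of all genes were called higher and 12.2% lower (28.4% in all). At 24 h 1 was higher and 6 lower, where 23.7% of all genes were higher and 20.2% lower (43.8% in all). At 72 h 1 was higher and 8 lower, where 34.2% of all genes were higher and 32.2% lower (66.4% in all). The members' median log2 fold change was 0.05 at 6 h, -0.57 at 24 h and -1.70 at 72 h, beside -0.01, 0.01 and 0.03 for all genes. Libraries of the compared groups did not overlap for 3 of the 9 genes at 6 h, 2 above sham (23.1% of all genes) and 1 below (21.2%). At 24 h it was 1 above (28% of all genes) and 6 below (25.7%), and at 72 h 1 above (39.3%) and 8 below (36.5%). At 10 min, where 0.0736% of genes were called, edgeR and DESeq2 each called 0 members. There, 0 members had an unadjusted edgeR p under 0.05, against 7.01% of all genes. At 1 h, where 0.294% were called, both tools again called 0. Only Bdh1 had an unadjusted edgeR p under 0.05 at 1 h, against 5.51% of all genes. An F test over all times called 9 of the 9, against 78.4% of all genes. The 5 comparisons share the 3 sham libraries, so their values are not independent of each other.

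**Figure D1:**
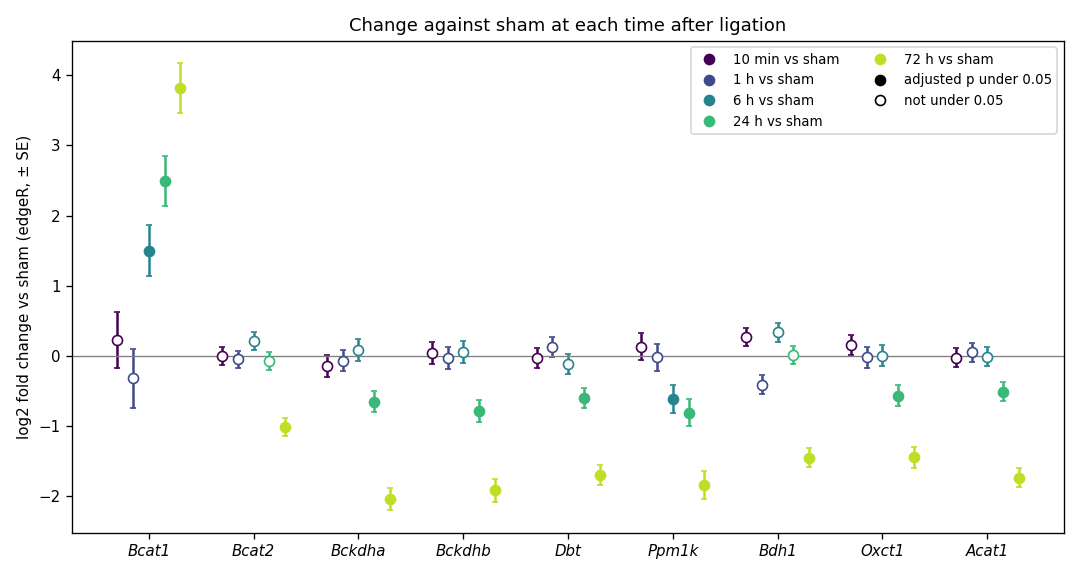
Log2 fold change against sham (vertical axis, edgeR, ± SE) of the 9 genes at each time after ligation, with filled points for an adjusted p under 0.05. Bcat1 lies above 0 from 6 h to 72 h, where it reaches 3.82, and the other 8 genes lie between -2.04 and -1.01 at 72 h.

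The aminotransferases moved in opposite directions. Bcat1 (chr6:144993835-145076184 in GENCODE M21, mm10) rose 14.1-fold by 72 h, and Bcat2 (chr7:45570153-45589711) fell to 0.498 times its sham level. Bcat1 read 1.62, 1.35 and 1.07 CPM in sham replicates 1 to 3, then 4.65, 4.45 and 2.29 CPM at 6 h, 5.09, 4.78 and 13.0 at 24 h, and 17.7, 20.6 and 18.6 at 72 h. All 9 libraries from 6 h on lay above all 3 sham libraries, and replicate 3 at 24 h lay well above its group. The log2 fold change was 1.50 ± 0.37 (SE) at 6 h (edgeR adjusted p = 0.00599), 2.49 ± 0.36 at 24 h (adjusted p = 4.97e-05) and 3.82 ± 0.36 at 72 h (adjusted p = 5.42e-08). Without replicate 3 at 24 h the 24 h value was 1.88 (edgeR adjusted p = 1.61e-05). The rise between 6 h and 24 h (log2 0.99, edgeR adjusted p = 0.028) rested on that library: without it the value was 0.38 (adjusted p = 0.244), and without replicate 3 at 6 h it was 0.73 (adjusted p = 0.121). The rise between 24 h and 72 h was 1.33 ± 0.30 on the log2 scale (edgeR adjusted p = 0.00135).

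Markers of macrophages, neutrophils and fibroblasts were read in the same libraries. The summed level of 7 macrophage markers ran from 249 to 284 CPM in sham, 221 to 308 at 6 h, 545 to 639 at 24 h and 3170 to 4190 at 72 h, with 0 of the 7 at 0 in any group. The summed level of 6 neutrophil markers was 3.03 to 4.56 CPM in sham, 101 to 748 at 6 h, 43 to 744 at 24 h and 59.2 to 73.5 at 72 h. The 24 h library with the highest Bcat1 was also the one with 744 CPM of neutrophil markers. A list of 7 fibroblast and myofibroblast markers summed to 702 to 783 CPM in sham and 9970 to 12500 at 72 h. Most of the 72 h sum was Col1a1 (3070 to 4350 CPM), Col3a1 (4450 to 5800) and Postn (1520 to 1600). The other markers changed less. From sham to 72 h, Pdgfra went from 38.1 to 41.9 CPM to 73.6 to 86.6, and Tcf21 from 10.5 to 14.0 to 28.5 to 34.0. Dcn went from 400 to 426 CPM to 450 to 583, and Lum from 39.2 to 45.1 to 171 to 223. The part of any of these cell types in the Bcat1 rise was not tested. The genes whose 6 group means followed Bcat1 most closely, of 11715 searched, were Slc15a3 (root mean square difference 0.083 log2 units) and Lcp2 (0.145).

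Bcat2 was called against sham only at 72 h. It read 143, 133 and 126 CPM in sham, 138, 145 and 182 at 6 h, 149, 126 and 108 at 24 h, and 78.3, 58.7 and 62.7 at 72 h. Only the 72 h libraries lay outside the sham range on the low side in all 3 mice. The log2 fold change was -0.07 ± 0.13 at 24 h (edgeR adjusted p = 0.692) and -1.01 ± 0.13 at 72 h (adjusted p = 1.55e-06), the smallest fall of the 8. Scaling by library totals gave -0.42 at 72 h (edgeR adjusted p = 0.00507). Per length, the Bcat1 to Bcat2 ratio was 0.00475, 0.00424 and 0.00355 in sham and 0.0944, 0.147 and 0.124 at 72 h. This was a 28.9-fold shift towards Bcat1 with no overlap of the groups (exact permutation p = 0.1, two-sided, the smallest that 3 against 3 allows). Among the 55 ratio tests of this kind the Benjamini-Hochberg adjusted value was 0.262 for each of those at 0.1. At 72 h Bcat2 transcripts still outnumbered Bcat1 transcripts in every library.

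**Figure D2:**
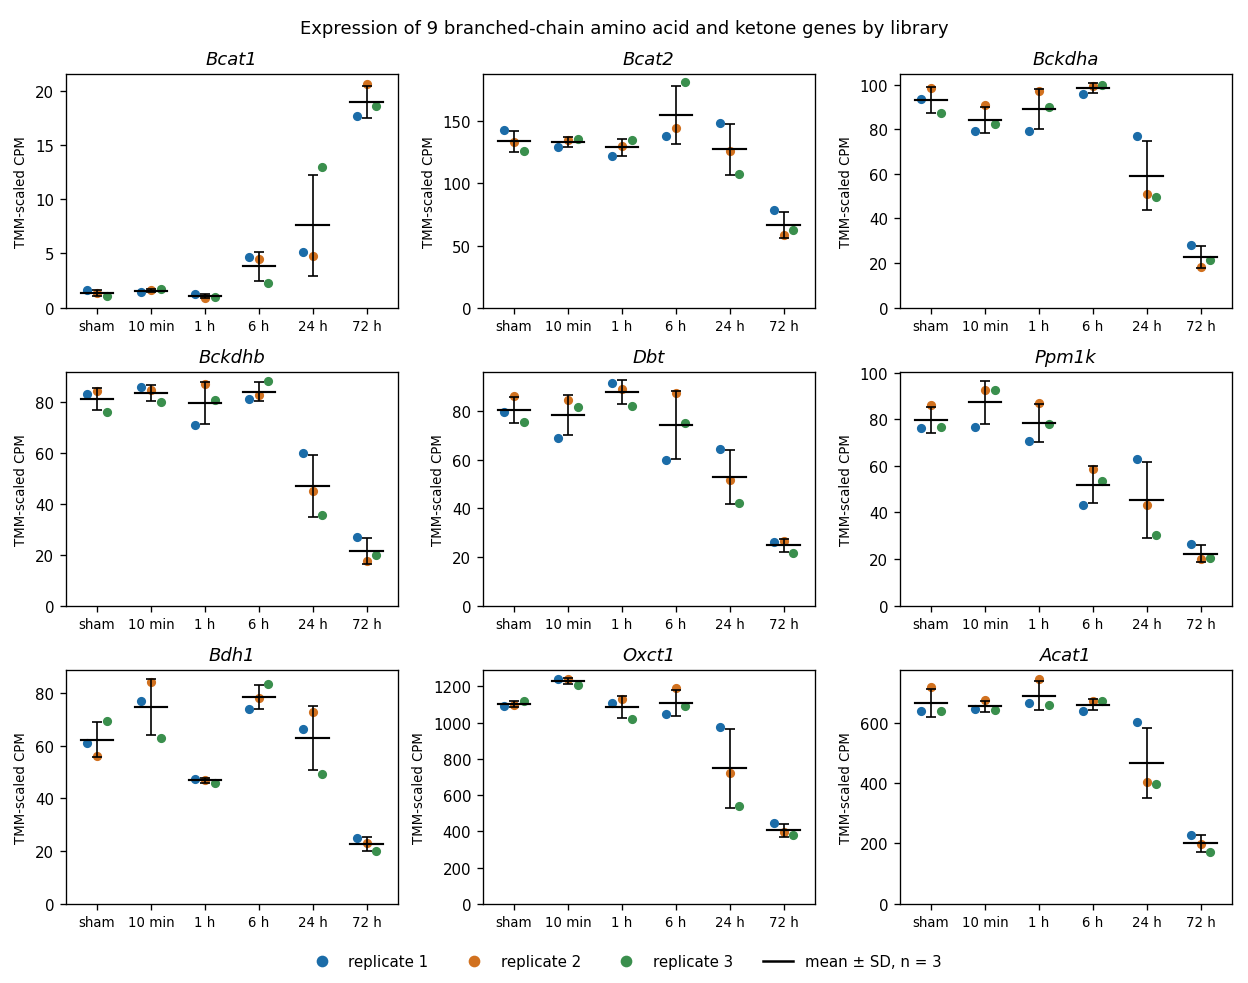
TMM-scaled CPM (vertical axes, from 0) of each of the 9 genes in all 18 libraries by group, with points for replicates 1 to 3 and bars for the mean ± SD of 3 mice. Bcat1 climbs from 1.34 CPM in sham to 19.0 at 72 h, while Oxct1 goes from 1100 to 406 and Acat1 from 665 to 200.

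The subunits of the branched-chain ketoacid dehydrogenase fell together between 6 h and 72 h. Bckdha (chr7:25629946-25658981), the E1 alpha subunit that carries the regulatory phosphorylation, read 93.4, 98.6 and 87.3 CPM in sham, 96.0, 99.6 and 100 at 6 h, 77.0, 51.1 and 49.7 at 24 h, and 28.2, 18.4 and 21.3 at 72 h. The 24 h and 72 h groups did not overlap sham or each other. Its log2 fold change was 0.08 ± 0.15 at 6 h (edgeR adjusted p = 0.727), -0.65 ± 0.15 at 24 h (adjusted p = 0.00251) and -2.04 ± 0.16 at 72 h (adjusted p = 5.06e-09), the largest fall of the 8. Exons of B3gnt8 on the opposite strand cover 61.7% of the Bckdha exon bases. B3gnt8 itself averaged 165 counts a library against 1522 for Bckdha. The strand setting of the counting is not given in the sources used here, so reads of the shared part cannot be assigned with certainty. This limit also bears on the Bckdha level per kb. Other genes on the opposite strand cover 15.9% of the exon bases of Bcat2, 13.7% of Bdh1, 12.6% of Oxct1 and 3.6% of Bcat1.

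Bckdhb (chr9:83925145-84124240), the E1 beta subunit, ran from 76.0 to 84.1 CPM in sham, 35.7 to 59.7 at 24 h and 17.6 to 27.1 at 72 h. Its log2 fold change was -0.79 ± 0.16 at 24 h (edgeR adjusted p = 0.000657) and -1.92 ± 0.16 at 72 h (adjusted p = 1.14e-08). Dbt (chr3:116513070-116549981), the E2 core, ran from 75.3 to 85.9 CPM in sham, 42.2 to 64.4 at 24 h and 21.7 to 26.6 at 72 h. Its fall was -0.61 ± 0.14 at 24 h (edgeR adjusted p = 0.00262) and -1.70 ± 0.15 at 72 h (adjusted p = 1.49e-08). Dld, the shared E3 subunit, was at 488 ± 33.8 CPM in sham, 338 ± 69.6 at 24 h and 194 ± 23.2 at 72 h, a log2 fold change of -1.33 ± 0.13 at 72 h (edgeR adjusted p = 5.05e-08). All 4 transcripts of the complex were therefore lower at 72 h, Dld by the least on the log2 scale. Differences between the subunits in the size of the fall were not tested.

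The phosphatase Ppm1k (chr6:57506502-57535468) was the only member called lower at 6 h. It read 76.4, 86.0 and 76.6 CPM in sham, 43.3, 58.7 and 53.7 at 6 h, 62.8, 43.0 and 30.3 at 24 h, and 26.4, 19.9 and 20.4 at 72 h. Every library from 6 h on lay below every sham library, while the 6 h and 24 h libraries overlapped each other. The log2 fold change was -0.62 ± 0.20 at 6 h (edgeR adjusted p = 0.0258), -0.81 ± 0.20 at 24 h (adjusted p = 0.00326) and -1.84 ± 0.20 at 72 h (adjusted p = 4.84e-07). The 6 h call did not hold without any 1 of the sham libraries, without replicate 1 or 3 at 6 h, or with no filter on low counts. Without replicate 1 at 6 h, the library with atrial transcripts, it was -0.50 (edgeR adjusted p = 0.12). The kinase Bckdk read 94.5 ± 7.2 CPM in sham and 88.6 ± 9.15 at 6 h (log2 -0.09 ± 0.11, edgeR adjusted p = 0.544). It fell by 0.46 on the log2 scale at 24 h (edgeR adjusted p = 0.00197) and by 1.03 at 72 h (adjusted p = 1.26e-07).

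The ratio of Bckdk to Ppm1k counts, which needs no scaling of libraries, was 1.33, 1.11 and 1.14 in sham. It was 1.88, 1.46 and 1.84 at 6 h, 1.23, 1.63 and 1.93 at 24 h, and 1.87, 2.17 and 2.28 at 72 h. The 6 h and 72 h libraries all lay above sham, and the 24 h libraries overlapped it. The ratio was 1.45-fold higher at 6 h and 1.77-fold higher at 72 h (exact permutation p = 0.1 for each, the smallest possible, and 0.262 after adjustment over the 55 tests). At 24 h it was 1.32-fold higher (exact permutation p = 0.2).

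**Figure D3:**
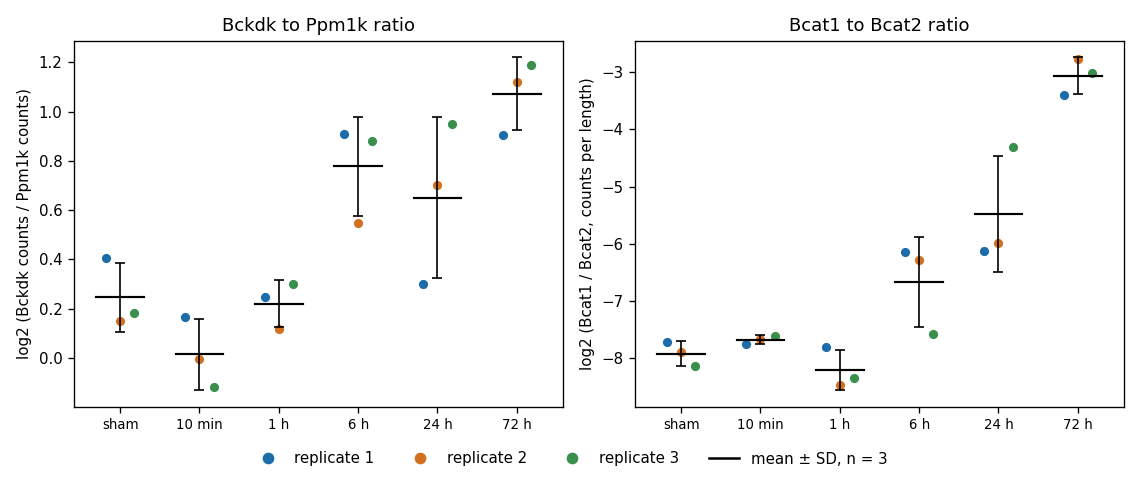
Log2 ratio of Bckdk to Ppm1k counts (left) and of Bcat1 to Bcat2 counts per length (right) in each library by group, with points for replicates 1 to 3 and bars for the mean ± SD of 3 mice. At 72 h all libraries lie above sham in both plots, by a mean of 0.83 on the left and 4.85 on the right.

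Of the ketone enzymes, Oxct1 and Acat1 followed the dehydrogenase subunits, and Bdh1 took a course of its own. Oxct1 (chr15:4026383-4155344), the step that commits acetoacetate to oxidation, read 1090, 1100 and 1120 CPM in sham, 976, 724 and 541 at 24 h, and 447, 395 and 378 at 72 h. The groups did not overlap, and the 24 h libraries were spread most widely. The log2 fold change was -0.57 ± 0.15 at 24 h (edgeR adjusted p = 0.0049) and -1.44 ± 0.15 at 72 h (adjusted p = 1.27e-07). At 10 min Oxct1 read 1240, 1240 and 1210 CPM, above all sham libraries, with a log2 fold change of 0.16 ± 0.15 that did not pass the test (edgeR adjusted p = 0.907). At 10 min, 11% of all genes had all 3 libraries above sham. Acat1 (chr9:53580522-53610382), the thiolase of both routes, ran from 639 to 717 CPM in sham, 397 to 601 at 24 h and 173 to 229 at 72 h. Its log2 fold change was -0.51 ± 0.14 at 24 h (edgeR adjusted p = 0.00608) and -1.73 ± 0.14 at 72 h (adjusted p = 6.58e-09). With only the sham and 24 h libraries in the fit, the 24 h calls of Oxct1 (edgeR adjusted p = 0.0594) and Acat1 (adjusted p = 0.0533) did not pass.

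Bdh1 (chr16:31422280-31458901), the hydroxybutyrate dehydrogenase, was called against sham only at 72 h in the fit of all libraries. It read 61.1, 56.2 and 69.3 CPM in sham, 77.1, 84.1 and 63.0 at 10 min, 47.5, 47.1 and 45.9 at 1 h, 74.0, 78.0 and 83.4 at 6 h, 66.5, 72.7 and 49.3 at 24 h, and 24.9, 23.2 and 20.0 at 72 h. The 1 h libraries lay below all sham libraries, as for 8.66% of all genes, and the 6 h libraries above them. The 10 min and 24 h libraries overlapped sham. At 10 min the log2 fold change was 0.27 ± 0.13 (edgeR adjusted p = 0.73). Against sham, the log2 fold change was -0.41 ± 0.13 at 1 h (edgeR adjusted p = 0.502), 0.34 ± 0.13 at 6 h (adjusted p = 0.0637), 0.02 ± 0.13 at 24 h (adjusted p = 0.938) and -1.45 ± 0.14 at 72 h (adjusted p = 3.07e-08). Without replicate 3 at 24 h the 6 h value was 0.33 (edgeR adjusted p = 0.0209). Fitted with only the sham and 1 h libraries, the 1 h value was -0.40 (edgeR adjusted p = 0.0138), and fitted with only the sham and 6 h libraries the 6 h value was 0.34 (adjusted p = 0.0322). The step from 1 h to 6 h passed the test, at 0.74 ± 0.13 on the log2 scale (edgeR adjusted p = 0.000669).

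Between consecutive times the members moved mostly after 6 h. From 10 min to 1 h only Bdh1 was called (log2 -0.67, edgeR adjusted p = 0.0283), where 0.307% of all genes were called and 0.0552% called lower. That call did not hold when any 1 of the 6 libraries compared was left out. From 1 h to 6 h, Bcat1 (1.82) and Bdh1 rose and Ppm1k fell by 0.60 (edgeR adjusted p = 0.0346), where 24.5% of all genes were called (14.5% higher and 10% lower). The Ppm1k step did not pass without replicate 1 or 3 at 6 h, without replicate 2 or 3 at 1 h, or with no filter. From 6 h to 24 h, Bcat1 rose and Bckdha, Bckdhb, Dbt, Oxct1 and Acat1 fell, by 0.49 to 0.84 on the log2 scale, where 27.8% of all genes were called (14.2% higher and 13.7% lower). The Dbt libraries overlapped in that step. With library totals only Bcat1, Bckdha and Bckdhb were called. The Dbt step did not pass without replicate 2 at 6 h or replicate 2 or 3 at 24 h, nor the Acat1 step without replicate 2 at 24 h. Bcat2 and Ppm1k were called lower without replicate 1 at 24 h (-0.39 and -0.48), and Bdh1 without replicate 2 at 24 h (-0.44). From 24 h to 72 h all 9 genes were called, Bcat1 higher and the other 8 lower by 0.88 to 1.47, where 50.5% of all genes were called (24.4% higher and 26.1% lower).

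Enzymes that act after the dehydrogenase fell with it. None of the 15 genes on that list was called at 6 h, 14 were lower at 24 h and 15 at 72 h. The median log2 fold change was -0.65 at 24 h and -1.49 at 72 h, where 20.2% and 32.2% of all genes were called lower. The smallest adjusted p at 72 h belonged to Aldh6a1, the methylmalonate semialdehyde dehydrogenase of valine breakdown (log2 -2.10, edgeR adjusted p = 2.81e-09), Auh, the hydratase of leucine breakdown (-1.54, adjusted p = 2.86e-09), and Mccc2, a methylcrotonyl-CoA carboxylase subunit (-1.71, adjusted p = 5.42e-09). The gene not called at 24 h was Acadsb (-0.25, edgeR adjusted p = 0.104), a short branched-chain acyl-CoA dehydrogenase.

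The 9 partners, regulators and transporters divided by role. At 6 h 3 were higher and 1 lower, where 16.3% of all genes were higher and 12.2% lower. At 24 h 3 were higher and 2 lower, where 23.7% of all genes were higher and 20.2% lower. At 72 h 5 were higher and 3 lower, where 34.2% of all genes were higher and 32.2% lower, with a median log2 fold change of 0.93. The plasma membrane transporters rose by 72 h: Slc7a8 by 4.04 (edgeR adjusted p = 3.48e-11), Slc43a2 by 1.49 (adjusted p = 2.4e-08), and Slc7a5 by 1.84 (adjusted p = 7.23e-05) on the log2 scale. Slc7a5, the large neutral amino acid carrier, was already higher at 6 h (log2 2.47, edgeR adjusted p = 5.47e-05) and at 24 h (2.74, adjusted p = 1.14e-05). Slc43a2 was first lower, at -0.40 at 6 h (edgeR adjusted p = 0.0368), and was not called at 24 h (0.28, adjusted p = 0.1). Slc3a2, the partner chain of Slc7a5, and Slc43a1 were the other 2 that were higher at 72 h. Slc3a2 was already higher at 6 h (log2 1.47, edgeR adjusted p = 7.41e-06) and at 24 h (1.245, adjusted p = 1.67e-05). Its mean was 118 CPM at 6 h and 87.3 at 72 h, and that of Slc7a5 was 28.6 at 24 h and 15.3 at 72 h. Slc7a8 was also higher at 6 h (log2 0.86, edgeR adjusted p = 0.00852) and at 24 h (2.31, adjusted p = 6.52e-07). Klf15, a transcription factor known to control amino acid breakdown, fell by 2.39 at 72 h (edgeR adjusted p = 1.44e-05). Dld and Bckdk were also lower at 72 h, with log2 fold changes of -1.33 and -1.03. The mitochondrial carrier Slc25a44 had a log2 fold change of -0.11 at 72 h (edgeR adjusted p = 0.416).

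Of 9 genes for ketone synthesis, other ketone enzymes and transport, 2 were higher at 6 h, 1 was higher and 4 lower at 24 h, and 4 were higher and 4 lower at 72 h. Over all genes, 16.3% were higher and 12.2% lower at 6 h, 23.7% and 20.2% at 24 h, and 34.2% and 32.2% at 72 h. The list's median at 72 h was 0.16. Slc16a1, the monocarboxylate carrier that brings ketone bodies into cells, fell by 1.61 on the log2 scale at 72 h (edgeR adjusted p = 2.19e-09), and its chaperone Bsg fell by 1.25 (adjusted p = 1.39e-08). Aacs, which activates acetoacetate in the cytosol, rose by 1.86 (edgeR adjusted p = 1.18e-07). Markers of liver, the main site of ketone synthesis, summed to at most 1.28 CPM in any library.

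**Figure D4:**
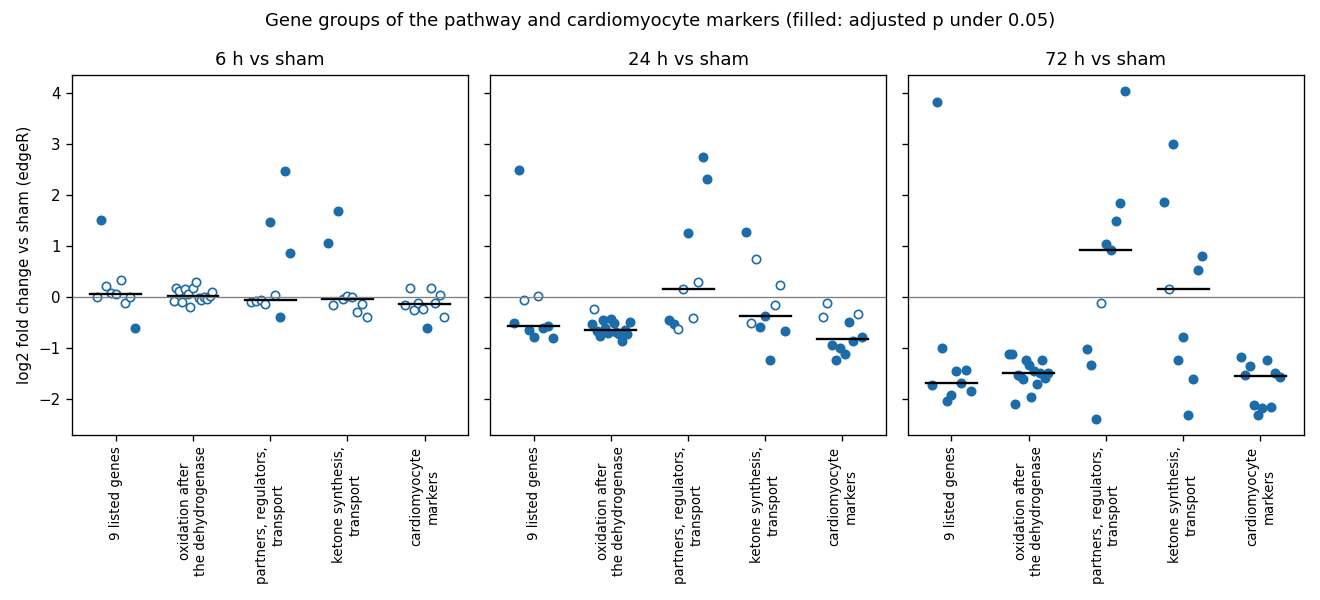
Log2 fold change against sham (vertical axis, edgeR) of each gene in the 9 listed genes, the 3 pathway lists and the 10 cardiomyocyte markers at 6 h, 24 h and 72 h, with filled points for an adjusted p under 0.05 and bars for medians. At 72 h the medians were -1.70 for the 9 genes, -1.49 for the enzymes after the dehydrogenase and -1.56 for the cardiomyocyte markers.

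Genes of the heart muscle cell fell over the same hours. Of 10 cardiomyocyte markers, 1 was lower at 6 h, 7 at 24 h and 10 at 72 h, with median log2 fold changes of -0.14, -0.83 and -1.56. Their summed level was 62900 to 68200 CPM in sham, 27300 to 42400 at 24 h and 16900 to 22200 at 72 h, and 0 of the 10 was at 0 in any group. Their part in the fall of the 8 genes was not tested. At 72 h the log2 fold changes of the single markers ran from -2.32 to -1.19. Each gene was also read relative to the mean log2 CPM of these markers in the same library, a scale that depends on the markers chosen. On that scale Dbt, Ppm1k and Acat1 at 72 h overlapped sham, with differences of 0.03, -0.12 and -0.01. Bckdha and Bckdhb lay below all sham libraries, at -0.33 and -0.21. Oxct1 and Bcat2 lay above, at 0.28 and 0.71, and Bdh1 overlapped at 0.28. For those that did not overlap, the exact permutation p was 0.1, the smallest possible. Bcat2 was also above sham at 6 h and 24 h on this scale (0.37 and 0.69), as was Bdh1 (0.50 and 0.77). In CPM at 24 h Bcat2 and Bdh1 were not called against sham (log2 -0.07 and 0.02), while the markers' median was -0.83. The share of all genes outside the sham range on the marker scale was not computed. On that scale Bckdha and Bckdhb, below sham at 72 h, were above all sham libraries at 6 h (0.25 and 0.22) and overlapped them at 24 h. Oxct1 was above sham at 10 min (0.20) and Bdh1 below it at 1 h (-0.39), with the same exact permutation p of 0.1. Ppm1k at 6 h stayed below sham, at -0.46.

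**Figure D5:**
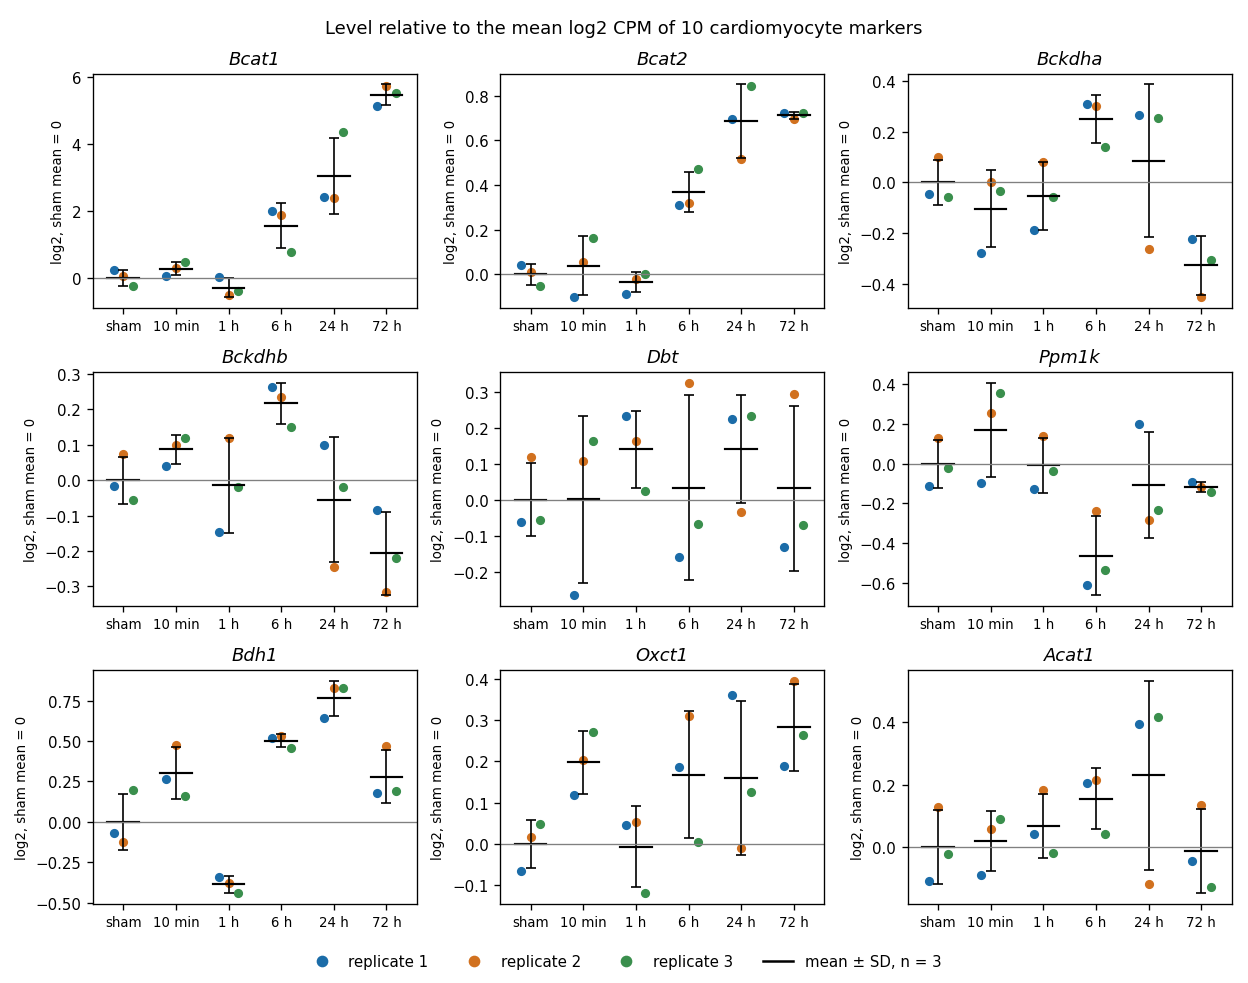
Log2 CPM of each gene minus the mean log2 CPM of 10 cardiomyocyte markers in the same library (vertical axes, sham mean set to 0), by group, with points for replicates 1 to 3 and bars for the mean ± SD of 3 mice. Bcat1 stands 5.48 above sham at 72 h and Bcat2 0.71, while the other 7 genes lie between -0.33 and 0.28.

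In some groups the same library was extreme for most of the 8 genes that fell. At 24 h, replicate 3 was the lowest for 8 of the 8 and replicate 1 the highest for 7. At 6 h, replicate 1, the library with atrial transcripts, was the lowest for 8 of the 8. At 72 h, replicate 1 was the highest for 7, and the lowest values were split between replicates 2 and 3, 4 genes each. In sham, replicate 2 was the highest and replicate 3 the lowest for 5 genes each. At 10 min and 1 h the lowest values were split between replicates 1 and 3, 4 each. The mean log2 CPM of the cardiomyocyte markers was likewise lowest in replicate 3 at 24 h and in replicate 1 at 6 h (11.73), and highest in replicate 1 at 72 h (10.51). The earlier groups differed: the markers were highest in replicate 1 in sham (12.05) and at 10 min (12.04) and in replicate 3 at 1 h (12.01), each of which was the highest for 1 of the 8 genes. Of the genes nearest in course, Oxct1 had Mccc1, a leucine enzyme, as the second nearest (root mean square difference 0.053 log2 units over the 6 group means). Acat1 had Atp5g3 (0.032) and Decr1 (0.033), Dbt had Asrgl1 (0.033) and Lrpprc (0.042), Bckdha had Phyh (0.036) and Ckmt2 (0.046), and Bcat2 had Hey2 (0.023) and Palmd (0.037). Ppm1k had Agtr1a (0.043) and Bckdhb had Tmem143 and Gcdh (0.053 each). The nearest to Bdh1, Fabp3-ps1, was at 0.148, the farthest nearest gene among the 9.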

How the data were processed

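Polyadenylated RNA from 18 libraries, 1 per mouse, was sequenced after oligo(dT) selection, per the labels' protocols. Per the submitters' processing notes, the tools were cutadapt 1.18, HISAT2 2.1.0 and featureCounts, with the mm10 build; the strand setting is not given in the sources used here. The authors deposited whole-number read counts per Ensembl gene and FPKM values of the same counts. 0 values differed between the series and the sample tables, and 0 columns had no sample. Among the deposited FPKM columns, 2 (6 h replicates 2 and 3) held each other's values and were exchanged by matching to the counts. Gene lengths for levels per kb were recovered from counts and FPKM. Symbols and coordinates came from GENCODE M21, matched by Ensembl ID (30489 of 30583).

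The counts were fitted by edgeR 4.0.16 (R 4.3.3): filterByExpr (14272 genes removed, 16311 tested), TMM, and a robust quasi-likelihood fit with 1 mean per group over all 18 libraries (biological coefficient of variation 0.149). Tests were two-sided and p-values were adjusted by the Benjamini-Hochberg method over all genes tested, with calls at 0.05. Ratios were tested by exact permutation. Alternatives were library totals, RLE, no filter, a minimum of 10 counts, DESeq2 1.42.0, limma 3.58.1 on log2(FPKM + 1) and log2(FPKM + 0.1), fits of only the groups compared, a replicate block, and leaving out each library. The fit was tested on simulated data. Depth was 18.2 to 25.1 M counts. Named genes were the 9 members, 8 further pathway genes, the 3 of smallest adjusted p at 72 h in each list, and the 2 nearest in group means among genes averaging 50 counts or more. Some genes that this rule names are not reported here. The members and lists were chosen with earlier results of these data known. The labels do not say how mice were assigned to groups or processed together, so a shared day cannot be told apart from group.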

Additional observations from a re-analysis of the deposited data

Results flagged for a closer look

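For 5 genes the sign of the change against sham differed between neighbouring times and the step between those times passed the test. Bdh1 had a log2 fold change against sham of 0.27 at 10 min (edgeR adjusted p = 0.73) and -0.41 at 1 h (adjusted p = 0.502). This was a step of -0.67 ± 0.13 (SE, edgeR adjusted p = 0.0283). The 10 min libraries overlapped sham, and the call of the step was lost when any single library of those compared was left out. At 6 h Bdh1 was at 0.34 (edgeR adjusted p = 0.0637), a step of 0.74 ± 0.13 (adjusted p = 0.000669). It then moved from 0.02 at 24 h to -1.45 at 72 h, a step of -1.47 ± 0.14 (edgeR adjusted p = 7.75e-08). Bcat1 went from -0.32 at 1 h to 1.50 at 6 h, a step of 1.82 ± 0.39 (edgeR adjusted p = 0.00277).

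Between 6 h and 24 h, Bckdha went from 0.08 to -0.65, a step of -0.74 ± 0.15 (edgeR adjusted p = 0.00208), and Bckdhb from 0.05 to -0.79, a step of -0.84 ± 0.16 (adjusted p = 0.000891). Oxct1 went from 0.00 to -0.57, a step of -0.57 ± 0.15 (edgeR adjusted p = 0.00796). The earlier value of each of these 7 steps did not itself pass the test against sham, nor did the later values of Bdh1 at 1 h and 6 h. The 3 mice of a group are too few for the test of single outlying libraries used in larger groups.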

How the results depend on the processing

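No direction of a called change reversed under any alternative. Of 729 gene values under the alternatives that keep all libraries of the groups compared, 678 kept their direction and call, 23 lost the call, 2 gained it and 26, none of them called, changed sign. With 1 library left out, 1408 of 1458 kept both, 21 lost the call, 4 gained it and 25 uncalled values changed sign. The counts of members called over all times (9), at 72 h (9) and 24 h (7) were the same in every leave-one-out fit, and the count at 10 min was 0. The other counts ranged, with 1 library left out, from 1 to 3 at 6 h, from 0 to 1 between 10 min and 1 h, from 2 to 3 between 1 h and 6 h, and from 4 to 8 between 6 h and 24 h. At 6 h the count of 2 became 1 with no filter or with limma on log2(FPKM + 1), where Bcat1 was 0.25 (limma adjusted p = 0.17) and lies under the pseudocount in sham. The count at 1 h became 1 when only the sham and 1 h libraries were fitted (Bdh1). Between 10 min and 1 h the count of 1 became 0 with either limma fit. Between 6 h and 24 h the count of 6 became 3 with library totals and with either limma fit, and 2 with only the libraries of those groups.

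The labels do not say whether the replicate numbers pair the libraries, and the main fit did not pair them. Same-numbered libraries correlated from -0.26 to 0.25 (median 0.04, 45 pairs), and differently numbered ones from -0.35 to 0.45 (median -0.01, 90 pairs). Of the libraries, 9 of 18 correlated best with their own number, so these values do not settle whether the numbers mark pairs. With the replicate block 2, 7 and 9 members were called against sham at 6, 24 and 72 h, and 5 between 6 h and 24 h, where Bcat1 was at 0.96 (edgeR adjusted p = 0.053). With 3 mice a group, small changes of Bcat1, at 15 to 38 counts a library before 6 h, were the least precise.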
